A study of Mus musculus with 18 samples.

Results

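The loss of Bhlhe40 and Bhlhe41 was compared between settings in alveolar macrophages, the phagocytes of the lung's air spaces. The quantity is the interaction, the DKO-minus-WT difference in mixed bone marrow chimeras minus the DKO-minus-WT difference in steady-state lungs, on log2(TPM + 1). TPM is a length-corrected share of a library's transcripts. All 8 alveolar libraries were used, of 12 RNA-seq libraries and 18 samples in the series. Of 24732 features, the 11567 that reached 1 TPM in 2 or more of the 8 libraries were tested. A positive interaction means that the DKO effect was higher in chimeras than in steady state, whether DKO cells gained more there or lost less.

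Each of the 4 groups had 2 libraries, which the series design calls biological replicates. DKO chimera cells were Bhlhe40-/-Bhlhe41-/- and were sorted from chimeras as CD45.1- CD45.2+. WT chimera cells were Bhlhe40+/+Bhlhe41+/+ and were sorted as CD45.1+ CD45.2-. DKO and WT steady-state cells had the same genotypes and came from lungs described without a transplant. Every library came from the C57BL/6 background, from digested lungs, and from CD11c+ SiglecF+ CD11b low cells. The labels used here do not give the recipients, the ages or the sexes, nor whether DKO and WT chimera libraries came from the same recipients. Library numbers run in one series for steady state and another for chimeras, so setting and library series cannot be told apart.

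Bhlhe40 and Bhlhe41 are basic helix-loop-helix repressors that bind E-box sequences. Alveolar macrophages of undisturbed mice are seeded around birth and renew themselves in place, under GM-CSF and TGF-beta signals and a constant load of surfactant lipid. In a mixed chimera, marrow of both genotypes is given to the same recipient, so DKO and WT cells can share a lung and a bone marrow origin. The labels used here do not establish either for these libraries. The settings thus differ in the surrounding lung and in the library series, and may differ in the origin of the cells and in the CD45 alleles. These cannot be told apart here.

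Depth, recovered from the deposited values as whole reads, was 6.59 and 20.08 M reads in DKO chimera, 16.51 and 20.36 in WT chimera, 18.15 and 19.41 in DKO steady-state and 19.82 and 17.62 in WT steady-state libraries. The DKO steady-state pair agreed least: their reads differed by a chi-square of 29.8 per degree of freedom, against 6.40 for DKO chimera, 9.76 for WT chimera and 5.18 for WT steady-state pairs. All 29 alveolar macrophage markers that the tables hold were detected in all 8 libraries, with a summed level of 33453 to 47520 TPM. Bhlhe40 had 243 and 193 TPM in DKO chimera, 940 and 664 in WT chimera, 122 and 98.7 in DKO steady-state and 527 and 559 in WT steady-state libraries. Its DKO effect was -1.86 in chimeras and -2.29 in steady state, and the interaction of 0.43 ± 0.26 (SE) did not pass (adjusted p = 0.256). Bhlhe41 had 110 and 112 TPM in DKO chimera, 100 and 88.6 in WT chimera, 156 and 155 in DKO steady-state and 86.7 and 77.6 in WT steady-state libraries, an interaction of -0.69 ± 0.12 (adjusted p = 0.0173). That call was lost without DKO chimera replicate 1, WT chimera replicate 1 or WT steady-state replicate 2, with values of -0.77 to -0.60 over the libraries left out. A gene-level TPM counts whatever is transcribed outside a deleted part, so neither value checks a genotype.

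More features were called in steady state than in chimeras, and effects that were large in steady state were mostly smaller in chimeras. In chimeras 1344 features were higher in DKO than in WT (11.6% of those tested) and 1298 lower (11.2%), at an adjusted p under 0.05 (here called). In steady state 1339 were higher (11.6%) and 4279 lower (37%). Of these, 780 were higher in both settings, which is 58.0% of the chimera list and 58.3% of the steady-state list. There were 924 lower in both, or 71.2% and 21.6%. The median DKO effect over all features was 0.00 in chimeras and -0.24 in steady state on this scale, and the counts in steady state moved with the scale. After each library was rescaled by its median of ratios, chimeras had 1338 features higher (11.6%) and 1557 lower (13.5%), and steady state had 2134 higher (18.4%) and 1879 lower (16.2%). Then 903 were higher in both settings, which is 67.5% of the chimera list and 42.3% of the steady-state list, and 643 were lower in both, or 41.3% and 34.2%. For 206 features that were called higher by at least 2 log2 units in steady state, the median effect was 1.68 in chimeras and 2.94 in steady state, and 189 were smaller in chimeras. For 115 that were called lower by as much, it was -0.99 in chimeras and -2.51 in steady state, and 113 were smaller. These sets were chosen by their steady-state values, so some shrinkage is built into both medians. Chosen the other way, the 124 features called higher by at least 2 in chimeras had a median of 2.55 in chimeras and 2.93 in steady state. The 20 called lower by as much in chimeras had a median of -2.49 in chimeras and -1.98 in steady state, so those were smaller in steady state.

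The interaction itself was called for 1549 features (13.4%), 1197 higher (10.3%) and 352 lower (3.04%). TPM is a composition, and the median interaction over all tested features was 0.22. After rescaling that median was -0.03 and the calls were 434 higher (3.75%) and 767 lower (6.63%). The split of the calls therefore depended on the scale, and 434 higher (3.75%) and 347 lower (3%) were called under both. Interaction counts for gene groups below are given on the deposited TPM and then after rescaling. Counts within a setting are on the deposited TPM unless named as rescaled, and stand against the 11.6% higher and 11.2% lower of all features in chimeras and the 11.6% higher and 37% lower in steady state. The counts also moved with single libraries: the number of features with an interaction called was 3391 without DKO steady-state replicate 1 and 919 without its replicate 2. Without DKO chimera replicates 1 and 2 there were 387 and 988, without WT chimera replicates 347 and 399, and without WT steady-state replicates 312 and 224.

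**Figure D1:**
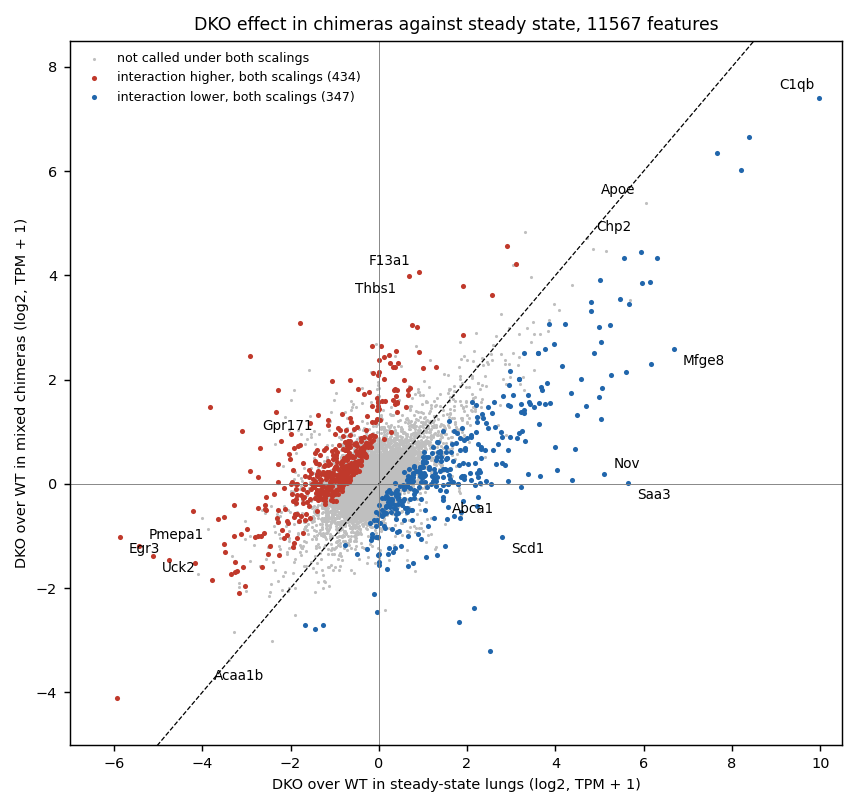
Each point is a tested feature; the vertical axis is the DKO-over-WT log2 difference in chimeras and the horizontal axis the same in steady-state lungs, both on log2(TPM + 1). The dashed line marks equal effects, and the 434 red and 347 blue features had a higher or lower interaction under both scalings. Saa3 and Nov lie near 0 in chimeras and far to the right, while Chp2 and Acaa1b lie on the line.

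Calls came mostly from effects seen in steady state and not, or less, in chimeras. Of the 1197 higher interactions, 784 were features called in steady state alone, 168 in chimeras alone, 113 in both with the larger effect in steady state and 33 in both with the larger in chimeras. Of the 352 lower ones, 146 were called in steady state alone, 126 in both and larger in steady state, 46 in chimeras alone and 5 in both and larger in chimeras. After rescaling, 217 of 434 higher interactions were features called in steady state alone and 101 in chimeras alone. Another 57 were called in both and larger in steady state, and 23 in both and larger in chimeras. For the 767 lower interactions after rescaling, these counts were 344, 171, 178 and 14. Opposite effects in the 2 settings were called with the interaction for 92 features (0.795%). Of these, 74 were higher in DKO in chimeras and lower in steady state and 18 the reverse, or 29 and 53 after rescaling.

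Some large DKO effects were close in size in both settings within the precision of these libraries. Among 1704 features called in the same direction in both settings, 1130 had a 95% interval of the interaction inside -1 to 1. That bound is wide, since most DKO effects over all features were under 1 log2 unit in size in either setting. The count therefore does not show that small effects were alike. The genes that follow were chosen for large effects in both settings. Chp2, a partner of sodium-proton exchangers, had 29.5 and 21.8 TPM in DKO chimera, 0 and 0 in WT chimera, 28.8 and 27.6 in DKO steady-state and 0 and 0.238 in WT steady-state libraries. Its DKO levels overlapped between settings, and the interaction was 0.00 ± 0.26. Acaa1b, a peroxisomal thiolase of fatty acid breakdown, had DKO effects of -3.38 in chimeras and -3.40 in steady state. The neuropeptide gene Gal fell by 2.84 in chimeras and by 3.29 in steady state, and the potassium channel gene Kcnj10 was higher in DKO by 4.50 and 4.85. The transcription factor gene Lhx2 (2.99 and 2.94), the kinase gene Nuak1 (2.84 and 2.65) and Csf3r, the receptor for G-CSF (2.67 and 2.58), were also higher in DKO by like amounts in chimeras and in steady state. Fam167a was among these genes at 2.87 and 3.17, but with a pseudocount of 0.1 the interaction of Fam167a was 1.37. Where WT levels were near 0, the likeness of other genes can depend on the pseudocount too. DKO-over-WT ratios of mean TPM in chimeras and in steady state were 28.4 and 11.7 for Nuak1. They were 110 and 69.2 for Kcnj10 and 18.6 and 20.2 for Lhx2.

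The highest interactions were taken among features called under both scalings, with library differences that did not overlap between settings. They belonged mainly to genes that DKO cells had nearly lost in steady-state lungs and kept in chimeras. Pmepa1, induced by TGF-beta and an inhibitor of Smad activation, had 35.5 and 33.7 TPM in DKO chimera, 79.7 and 80.9 in WT chimera, 0.320 and 0.369 in DKO steady-state and 58.3 and 55.5 in WT steady-state libraries. Both DKO chimera values were far above both DKO steady-state values, and the WT values lay between 55.5 and 80.9 TPM. The interaction was 4.23 ± 0.12 (adjusted p = 9.17e-06). Uck2, a uridine kinase, had 77.6 and 74.9 TPM in DKO chimera, 207 and 195 in WT chimera, 7.71 and 5.10 in DKO steady-state and 230 and 278 in WT steady-state libraries (3.74 ± 0.23, adjusted p = 0.000607). The order of groups was nearly the same, with DKO steady-state libraries lowest and WT libraries highest.

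Spag11b, a defensin-like gene, had 1.22 and 2.80 TPM in DKO chimera, 6.77 and 7.29 in WT chimera, 0.0758 and 0.0686 in DKO steady-state and 28.4 and 27.8 in WT steady-state libraries (3.29 ± 0.33, adjusted p = 0.00212). Here WT cells also differed between settings. That was so throughout for Mkx, a homeobox gene, with 9.48 and 10.9 TPM in WT steady-state libraries and 0.163 to 0.634 TPM in the other 6. Its interaction of 3.16 ± 0.26 came from WT steady-state cells alone, and the gene passed the level filter only through them. Trem1, a receptor that amplifies inflammatory responses, had an interaction of 2.96 ± 0.60. Its call held in only 2 of 8 fits that left out a library, with values of 2.13 to 3.78. The small nucleolar RNA Snora64 (2.96 ± 0.52) rested on 1 to 17 reads per library.

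A smaller set of the highest interactions was gained by DKO cells in chimeras. F13a1, the coagulation factor XIII subunit made by monocytes and macrophages, had 19.7 and 16.1 TPM in DKO chimera, 0.133 and 0.108 in WT chimera, 1.21 and 1.00 in DKO steady-state and 0.155 and 0.0709 in WT steady-state libraries. It was high in DKO chimera libraries alone, and the interaction was 3.15 ± 0.25 (adjusted p = 0.000969). Thbs1, the matrix protein thrombospondin 1, had 26.0 and 39.5 TPM in DKO chimera, 0.496 and 1.93 in WT chimera, 2.50 and 0.802 in DKO steady-state and 0.525 and 0.600 in WT steady-state libraries (3.29 ± 0.56, adjusted p = 0.0154). Its call was lost without either WT steady-state replicate, at values of 2.81 to 3.78 over all libraries left out.

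**Figure D2:**
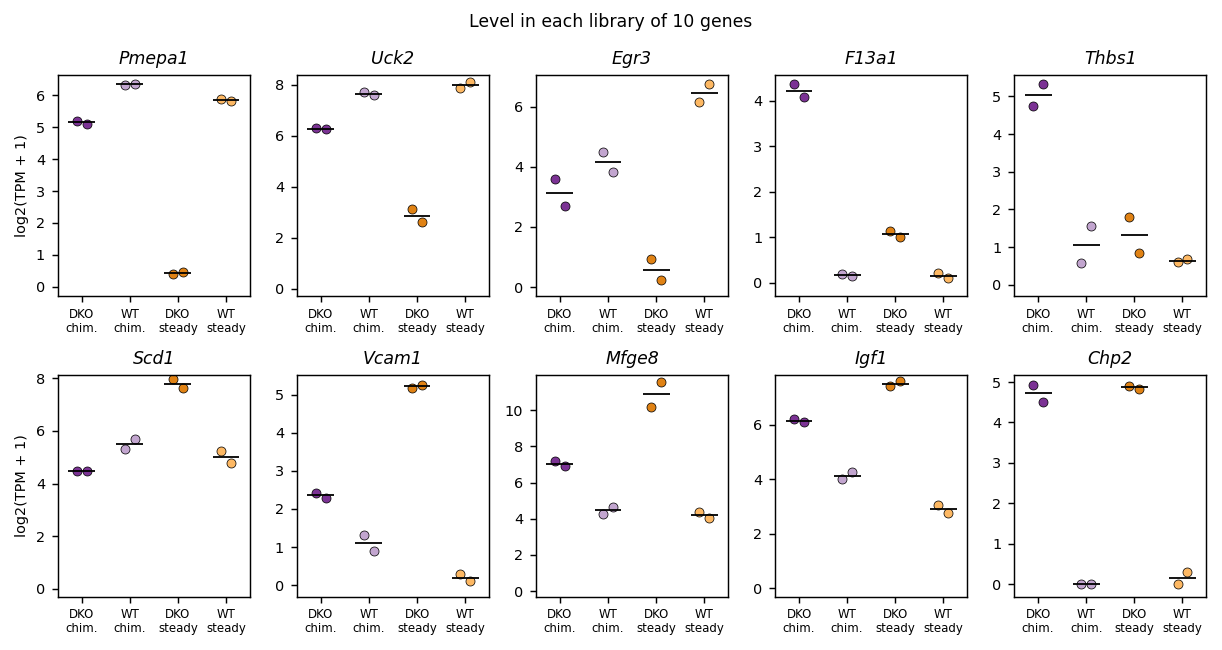
Level of 10 genes in each library, as log2(TPM + 1); points are libraries, bars are means of 2 libraries, and groups run from DKO chimera to WT steady state. Pmepa1, Uck2 and Egr3 are lowest in DKO steady-state cells, F13a1 and Thbs1 highest in DKO chimera cells, Scd1, Vcam1, Mfge8 and Igf1 highest in DKO steady-state cells, and Chp2 is alike in both settings.

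The lowest interactions so chosen belonged to genes that DKO cells gained in steady-state lungs and gained less, or not at all, in chimeras. Saa3, an acute-phase serum amyloid, had 0 and 0.427 TPM in DKO chimera, 0 and 0.398 in WT chimera, 24.9 and 95.1 in DKO steady-state and 0 and 0 in WT steady-state libraries. That is 0 and 2 reads in each chimera pair and 100 and 423 reads in the DKO steady-state pair, so it was detected above a trace in those libraries alone (-5.62 ± 0.75, adjusted p = 0.00649). Nov, a secreted matrix-associated regulator also called Ccn3, had 0.149 and 0.144 TPM in DKO chimera, 0 and 0 in WT chimera, 30.1 and 64.0 in DKO steady-state and 0.258 and 0.353 in WT steady-state libraries (-4.91 ± 0.44, adjusted p = 0.00131). Arnt2, a partner of bHLH-PAS transcription factors, had 11.8 and 16.3 TPM in DKO steady-state libraries and 0.104 to 0.348 TPM in the other 6 (-3.51 ± 0.29). Saa3, Nov and Arnt2 passed the level filter through DKO steady-state libraries, and all 3 were untested when either of those was left out. The sizes of such interactions depend on the pseudocount: the interaction of Saa3 was -8.89 with 0.1 and -3.45 with 5.

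Other genes of this kind were also gained in chimeras. Mfge8, a secreted protein that links dying cells to phagocyte integrins, had 146 and 118 TPM in DKO chimera, 18.4 and 24.0 in WT chimera, 1176 and 3064 in DKO steady-state and 19.6 and 15.7 in WT steady-state libraries (-4.09 ± 0.54, adjusted p = 0.00621). Tmem37, a calcium channel subunit-like gene, was higher in DKO by 2.29 in chimeras and 6.16 in steady state (-3.87 ± 0.29). Vcam1, an adhesion molecule of Kupffer cells and splenic macrophages, had 4.36 and 3.87 TPM in DKO chimera, 1.501 and 0.871 in WT chimera, 35.3 and 37.3 in DKO steady-state and 0.215 and 0.0820 in WT steady-state libraries (-3.79 ± 0.25, adjusted p = 0.00072). The kinase gene Fam20c (-3.45 ± 0.35), the acid phosphatase gene Acpp (-3.33 ± 0.28) and the lipid phosphatase gene Ppap2b (-3.29 ± 0.28) followed the same order of groups, with DKO steady-state cells highest and DKO chimera cells next. The protease gene Mmp14 (-4.31 ± 0.77) and the class I-like gene H2-M2 (-3.78 ± 0.90) were uneven between the DKO steady-state libraries, at 13.1 and 55.2 TPM and at 12.9 and 65.4 TPM. Their calls held in 3 and 2 of 8 fits without a library, at -5.31 to -3.31 and -4.91 to -2.65.

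Genes called in opposite directions included Scd1, the desaturase that makes monounsaturated fatty acids. It had 21.3 and 21.2 TPM in DKO chimera, 38.5 and 50.5 in WT chimera, 248 and 198 in DKO steady-state and 37.1 and 26.2 in WT steady-state libraries. DKO cells thus had less Scd1 than WT cells in chimeras (-1.02 ± 0.19) and more in steady state (2.79 ± 0.19), an interaction of -3.81 ± 0.27 (adjusted p = 0.000759). Myrf, a membrane-bound transcription factor known from myelination, was also lower in DKO in chimeras (-1.19 ± 0.20) and higher in steady state (1.5 ± 0.20). Gpr171, a G protein-coupled receptor, was higher in DKO in chimeras (0.82 ± 0.22) and lower in steady state (-2.22 ± 0.22), as were the Wnt inhibitor Apcdd1 (1.32 ± 0.17 and -1.38 ± 0.17) and the glutaminyl cyclase Qpct (0.73 ± 0.18 and -1.83 ± 0.18). The interactions of Scd1, Myrf, Gpr171, Apcdd1 and Qpct were called without any one of the 8 libraries. The other 3 of the 8 with the largest interactions rested on few reads. Mir125a had 0 to 3 reads per library, Snora3 0 to 9 and the unannotated feature IMP_IDC_134 0 to 48.

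Cholesterol genes moved as a group between settings. Cells that sense low sterol activate SREBP2, which turns on cholesterol synthesis and uptake, while excess oxysterol activates LXR, which turns on efflux and lipid carriers. Of 21 tested genes of cholesterol synthesis and uptake, the interaction was higher for 13 and lower for 0, against 10.3% and 3.04% of all features, or 8 and 0 after rescaling. The median interaction was 0.90 in the list and 0.22 over all features, or 0.63 and -0.03 after rescaling. In chimeras 13 were called higher in DKO than in WT and 0 lower. In steady state 2 were higher and 8 lower. After rescaling these counts were 13 and 0 in chimeras and 2 and 4 in steady state. Over the 8 fits that left out a library, 7 to 13 were higher and 0 lower, with 7 without DKO chimera replicate 1, WT chimera replicate 2 or WT steady-state replicate 2.

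Sqle, squalene epoxidase, had 63.7 and 57.7 TPM in DKO chimera, 34.6 and 30.9 in WT chimera, 24.1 and 26.9 in DKO steady-state and 33.4 and 34.2 in WT steady-state libraries. DKO values were above WT in chimeras and below WT in steady state, with no overlap, and the interaction was 1.27 ± 0.14 (adjusted p = 0.00311). Cyp51, lanosterol demethylase, had 78.5 and 60.5 TPM in DKO chimera, 50.5 and 43.2 in WT chimera, 19.6 and 15.7 in DKO steady-state and 42.7 and 49.4 in WT steady-state libraries (1.89 ± 0.23, adjusted p = 0.00438). Sc5d, another enzyme of late sterol synthesis, had DKO effects of 0.54 in chimeras and -0.40 in steady state (0.93 ± 0.13). The interactions of Sqle, Cyp51 and Sc5d were called without any one of the 8 libraries.

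LXR targets and efflux genes had the opposite pattern. Of 19 tested, the interaction was higher for 0 and lower for 8, or 0 and 13 after rescaling, with a median of -0.64, or -0.92 after rescaling. In chimeras 7 were called higher in DKO and 4 lower, and in steady state 14 were higher and 0 lower (6 and 4 in chimeras, 16 and 0 in steady state after rescaling). Without single libraries 6 to 10 were lower and at most 1 higher. Abca1, the transporter that loads cholesterol on apolipoprotein A-I, had 63.0 and 62.1 TPM in DKO chimera, 70.6 and 78.3 in WT chimera, 278 and 272 in DKO steady-state and 102 and 98.3 in WT steady-state libraries. DKO cells were above WT in steady state and below WT in chimeras (-1.69 ± 0.11, adjusted p = 0.000607). Arl4c, a small GTPase that aids cholesterol transport, was lower in DKO in chimeras (-0.70 ± 0.11) and higher in steady state (0.74 ± 0.11). Scd1, described above, is another LXR target that was lower in DKO in chimeras and higher in steady state. Apoc2, the cofactor of lipoprotein lipase, was higher in DKO in both settings, by 1.55 in chimeras and 3.62 in steady state (-2.06 ± 0.32). Apoe, the main lipoprotein of macrophages, had 893 and 796 TPM in DKO chimera, 22.5 and 16.2 in WT chimera, 6454 and 6150 in DKO steady-state and 94.2 and 94.7 in WT steady-state libraries. It was picked for mention as the most abundant member, and its interaction of -0.65 ± 0.19 did not pass on the deposited scale (adjusted p = 0.0588).

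Promoter sequence was available from RefSeq for part of these genes. Of 21 tested synthesis genes, 14 had at least 1 window of 250 bases before an annotated start, and 14 of 14 held the letters CCAAT on either strand. The CCAAT box is bound by NF-Y, which is known to act beside SREBP2. It was held by 40.4% of the 8530 tested features with a window and by 6 of 12 LXR targets (50%). The E-box CACGTG, a known Bhlhe40 and Bhlhe41 site, was held by 4 of 14 synthesis genes (28.6%), by 1 of 12 LXR targets, by 7 of 27 immediate-early genes (25.9%) and by 10.2% of tested features with a window. The CCAAT letters were also held by 24 of 32 mitosis genes (75%). CACCCCAC, the core of a known SREBP element, was held by 0 of 14 synthesis genes and by 3.3% of tested features with a window. These matches are descriptions of letters in a window and no evidence of binding. Windows of 4 synthesis genes with a called interaction are given with CCAAT or its complement ATTGG in capitals. They are Cyp51 (GRCm38.p6, chr5:4104698-4104947, minus strand), Hsd17b7 (chr1:169969206-169969455, minus strand), Sc5d (chr9:42264301-42264550, minus strand) and Insig1 (chr5:28071162-28071411, plus strand), each read in the direction of transcription and ending at the base before the start.
Cyp51: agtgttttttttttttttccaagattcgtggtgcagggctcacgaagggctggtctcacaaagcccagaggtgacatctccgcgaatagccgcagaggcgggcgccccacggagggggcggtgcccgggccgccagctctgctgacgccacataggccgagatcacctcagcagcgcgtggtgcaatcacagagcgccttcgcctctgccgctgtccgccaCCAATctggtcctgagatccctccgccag
Hsd17b7: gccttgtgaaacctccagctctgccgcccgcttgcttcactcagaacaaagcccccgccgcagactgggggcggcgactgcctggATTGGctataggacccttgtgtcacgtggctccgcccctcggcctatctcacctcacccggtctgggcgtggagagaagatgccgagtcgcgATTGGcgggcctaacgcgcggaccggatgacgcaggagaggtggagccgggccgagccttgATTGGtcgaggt
Sc5d: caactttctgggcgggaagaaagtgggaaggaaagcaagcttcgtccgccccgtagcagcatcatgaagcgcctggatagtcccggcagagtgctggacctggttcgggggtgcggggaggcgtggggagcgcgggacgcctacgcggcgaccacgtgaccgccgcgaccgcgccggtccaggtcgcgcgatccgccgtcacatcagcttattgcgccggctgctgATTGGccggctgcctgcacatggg
Insig1: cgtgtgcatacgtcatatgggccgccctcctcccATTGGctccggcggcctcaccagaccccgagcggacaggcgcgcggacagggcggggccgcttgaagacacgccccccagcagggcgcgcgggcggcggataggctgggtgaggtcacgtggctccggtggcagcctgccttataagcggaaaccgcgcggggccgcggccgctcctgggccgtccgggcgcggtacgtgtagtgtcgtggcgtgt
Cyp51 held 1 such box, close to the start, and so did Sc5d. Hsd17b7 held 3. Insig1, which retains the SREBP2 complex in the endoplasmic reticulum, had an interaction of 1.19 ± 0.30 (adjusted p = 0.0411), and Hsd17b7, an enzyme of late sterol synthesis, 1.09 ± 0.22 (adjusted p = 0.0232). Both were chosen for their promoters after their values were seen, and neither was called after rescaling.

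Of 32 tested genes of fatty acid handling, the interaction was higher for 7 and lower for 1, or 5 and 1 after rescaling, with a median of 0.33, or 0.07 after rescaling. The higher count was 14 without DKO steady-state replicate 1, 6 and 7 without DKO chimera or DKO steady-state replicate 2, and 2 to 4 without any one of the other 5 libraries. Fasn, fatty acid synthase, had 28.4 and 24.0 TPM in DKO chimera, 22.4 and 18.6 in WT chimera, 15.2 and 14.7 in DKO steady-state and 29.5 and 30.9 in WT steady-state libraries (1.31 ± 0.17, adjusted p = 0.00585). Elovl6, which elongates palmitate, had 7.58 and 7.63 TPM in DKO chimera, 1.03 and 1.03 in WT chimera, 7.14 and 5.22 in DKO steady-state and 5.51 and 6.91 in WT steady-state libraries (2.09 ± 0.24, adjusted p = 0.00384). For Elovl6 WT chimera cells were lowest, and DKO and WT steady-state libraries overlapped.

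Immediate-early genes, which cells induce within minutes of a stimulus, were mostly lower in DKO cells of steady-state lungs and mostly not in chimeras. Of 32 tested, the interaction was higher for 15 and lower for 0, or 9 and 0 after rescaling, with a median of 1.26, or 0.98 after rescaling. In chimeras 10 were called higher in DKO and 1 lower. In steady state 3 were higher and 22 lower. After rescaling these counts were 10 and 1 in chimeras and 4 and 17 in steady state. Egr3, a zinc finger factor of growth responses, had 10.95 and 5.52 TPM in DKO chimera, 21.3 and 13.1 in WT chimera, 0.932 and 0.169 in DKO steady-state and 70.3 and 106 in WT steady-state libraries (4.85 ± 0.53, adjusted p = 0.00311). Egr1 had 110 and 51.5 TPM in DKO chimera, 132 and 89.3 in WT chimera, 55.3 and 25.8 in DKO steady-state and 690 and 744 in WT steady-state libraries (3.69 ± 0.59, adjusted p = 0.0118), a call that was lost without WT steady-state replicate 2 and kept without any other library (3.15 to 4.23). For both genes WT steady-state libraries were the highest of all, so WT cells differed between settings too. Klf6, a Krüppel-like factor, had 247 and 235 TPM in DKO chimera, 145 and 139 in WT chimera, 253 and 190 in DKO steady-state and 305 and 329 in WT steady-state libraries (1.28 ± 0.18, adjusted p = 0.00721).

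The DKO steady-state libraries disagreed on these genes. Replicate 2 was below replicate 1 for 28 of 32, with a median ratio of 0.603, against ratios of 0.919 in DKO chimera, 1.06 in WT chimera and 1.11 in WT steady-state pairs. Without replicate 1 the interaction was higher for 28 of 32 and without replicate 2 for 18. It was higher for 4 and 9 without DKO chimera replicates 1 and 2, for 6 and 4 without WT chimera replicates and for 3 and 2 without WT steady-state replicates. The median stayed between 0.86 and 1.60.

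Cytokines followed, with exceptions. Of 25 tested inflammatory cytokines and growth factors, the interaction was higher for 11 and lower for 2, or 4 and 2 after rescaling. The median was 1.35, or 1.08 after rescaling. The higher count was 13 and 10 without DKO steady-state replicates 1 and 2 and 2 to 5 without any one of the other 6 libraries. Tnf had 148 and 93.3 TPM in DKO chimera, 162 and 71.1 in WT chimera, 29.7 and 21.3 in DKO steady-state and 155 and 196 in WT steady-state libraries (2.87 ± 0.53, adjusted p = 0.0184). DKO and WT overlapped in chimeras and were apart in steady state. Its call was lost without DKO chimera replicate 1 or either WT steady-state replicate, at 2.28 to 3.46 over the libraries left out. Lif, an interleukin-6 family cytokine, was higher in DKO chimera (46.1 and 31.7 TPM) and WT chimera libraries (25.7 and 21.4) than in DKO (2.58 and 0.963) and WT steady-state libraries (9.94 and 8.22), with an interaction of 2.60 ± 0.41 (adjusted p = 0.011). Tnfsf13b, the B cell survival factor BAFF, fell less in chimeras than in steady state, with 5.40 and 3.33 TPM in DKO chimera, 14.6 and 9.78 in WT chimera, 1.55 and 1.27 in DKO steady-state and 26.9 and 24.8 in WT steady-state libraries (2.18 ± 0.32).

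The exceptions were growth factors. Igf1 had 72.5 and 67.5 TPM in DKO chimera, 15.2 and 18.0 in WT chimera, 168 and 191 in DKO steady-state and 7.28 and 5.83 in WT steady-state libraries (-2.56 ± 0.18, adjusted p = 0.000759). DKO cells were above WT in both settings, by more in steady state. Pdgfb was higher in DKO by 0.82 in chimeras and 3.31 in steady state (-2.50 ± 0.39), a call lost without WT steady-state replicate 2 (-2.92 to -2.07 over all).

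**Figure D3:**
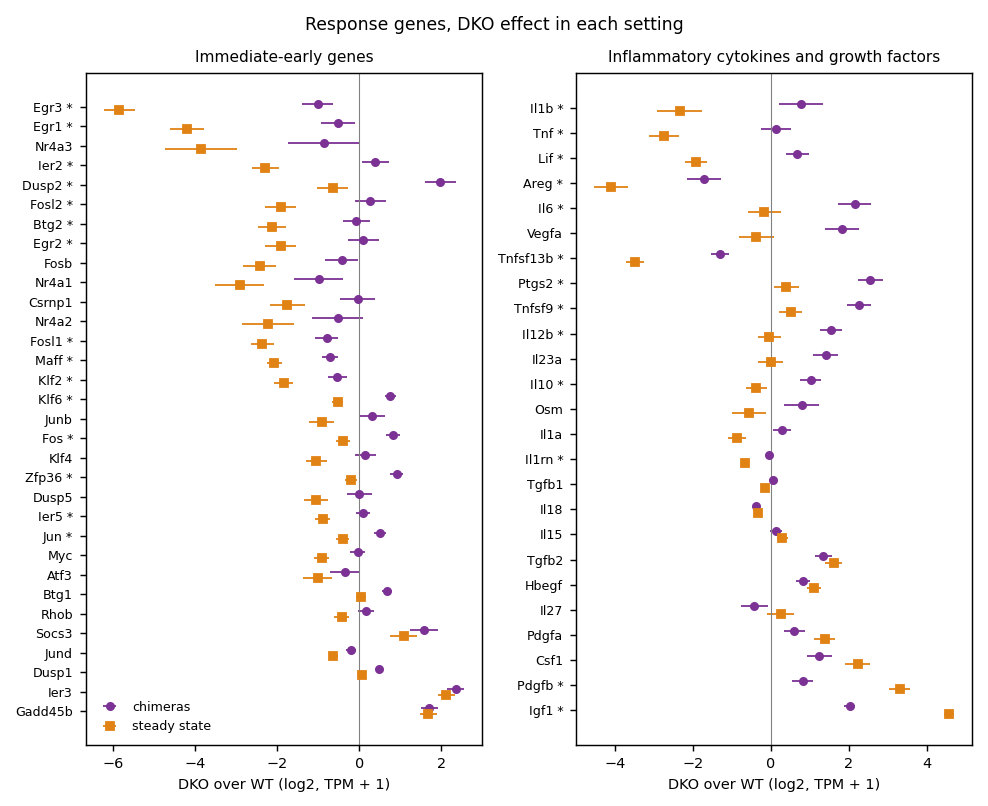
DKO-over-WT log2 difference of each tested immediate-early gene and each inflammatory cytokine or growth factor, with the SE of the fit, in chimeras (circles) and in steady state (squares); an asterisk marks a called interaction on the deposited TPM. Most steady-state points of immediate-early genes lie left of 0 while chimera points lie around 0, and Igf1 and Pdgfb are the 2 cytokine genes with a called interaction in the other direction.

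Feedback genes of NF-kB, the factor that drives many inflammatory genes, were higher for 7 and lower for 1 of 22 (5 and 1 after rescaling), with a median of 0.35 (0.08 after rescaling). Without DKO steady-state replicate 1 they were higher for 10 and lower for 5, and without any one of the other 7 libraries higher for 2 to 6 and lower for 0. Nfkbiz, an inducible nuclear IkB protein, had 83.8 and 66.5 TPM in DKO chimera, 42.3 and 26.9 in WT chimera, 11.1 and 7.54 in DKO steady-state and 19.8 and 23.7 in WT steady-state libraries (2.28 ± 0.34, adjusted p = 0.01). Tnfaip3, the ubiquitin-editing enzyme A20, was higher in DKO in chimeras (0.79) and lower in steady state (-0.29), an interaction of 1.08 ± 0.14. Chemokines divided, with 5 higher and 4 lower of 21, on both scales. The lower count was 0 without DKO chimera replicate 1, WT chimera replicate 2 or either WT steady-state replicate, 1 without WT chimera replicate 1 and 7 without DKO steady-state replicate 1. Ccl22, a ligand of CCR4, had 18.7 and 16.6 TPM in DKO chimera, 12.1 and 12.6 in WT chimera, 3.57 and 4.75 in DKO steady-state and 21.6 and 17.8 in WT steady-state libraries (2.49 ± 0.21, adjusted p = 0.00114). Cxcl14 had the same direction (2.04 ± 0.22), and so did the neutrophil attractant Cxcl2 (0.91 ± 0.13).

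TGF-beta, a signal that alveolar macrophages need, acts through Smad proteins and induces its own inhibitors. Of 25 pathway genes tested, the interaction was higher for 7 and lower for 1 (4 and 1 after rescaling), with a median of 0.47 (0.19 after rescaling). The higher count was 14 without DKO steady-state replicate 1 and 2 to 5 without any one of the other 7 libraries. Pmepa1 led, as given above. Smad7, the inhibitory Smad, had 4.92 and 5.13 TPM in DKO chimera, 5.51 and 5.33 in WT chimera, 2.08 and 1.24 in DKO steady-state and 7.74 and 7.53 in WT steady-state libraries (1.63 ± 0.24, adjusted p = 0.00929). DKO cells were at WT levels in chimeras and below them in steady state. Id1, an inhibitor of DNA binding induced by TGF-beta family ligands, had 47.2 and 28.7 TPM in DKO chimera, 64.8 and 51.0 in WT chimera, 12.6 and 3.32 in DKO steady-state and 83.8 and 89.5 in WT steady-state libraries (2.89 ± 0.66, adjusted p = 0.0329), a call kept in 3 of 8 fits without a library (2.06 to 3.71). Id2 went the other way (-0.98 ± 0.17) and kept its call in 5 of 8 (-1.12 to -0.84).

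Some complement and tissue-macrophage genes that DKO cells gained were gained less in chimeras. Of 18 complement genes tested, 11 were called higher in DKO in chimeras and 10 in steady state, and the interaction was higher for 2 and lower for 6 (0 and 8 after rescaling), with a median of -0.40 (-0.63 after rescaling). Over the 8 fits that left out a library, 4 to 9 were lower. C1qb, a chain of the recognition subunit of complement, had 569 and 604 TPM in DKO chimera, 3.21 and 1.89 in WT chimera, 891 and 1263 in DKO steady-state and 0 and 0.131 in WT steady-state libraries. The DKO levels of C1qb were within a factor of 3 of each other, and part of the interaction of -2.57 ± 0.29 lay in the trace in WT chimera cells. The interaction of C1qb was -4.93 with a pseudocount of 0.1 and -1.42 with 5. C3ar1, a receptor for the complement fragment C3a, had 16.0 and 15.4 TPM in DKO chimera, 0.609 and 0.467 in WT chimera, 61.9 and 79.0 in DKO steady-state and 0.454 and 0.324 in WT steady-state libraries (-2.23 ± 0.21, adjusted p = 0.00177). C2, a complement protease, had 8.43 and 14.4 TPM in DKO steady-state libraries and 0 to 0.830 TPM in the other 6 (-2.87 ± 0.42). C2 passed the level filter through the DKO steady-state libraries and was untested when either was left out. It was called in the other 6 fits without a library (-3.09 to -2.66). The exceptions were C1ra, a protease of the C1 complex, higher in DKO by 1.08 in chimeras and 0.11 in steady state (0.98), and C5ar1, the receptor for C5a (0.70). Both lost their higher call after rescaling.

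Among 17 tested markers of Kupffer cells and splenic macrophages, the interaction was higher for 3 and lower for 7 on both scales, with a median of -0.76 (-0.93 after rescaling). Spic, a transcription factor needed for red pulp macrophages of the spleen, had 1.39 and 1.70 TPM in DKO chimera, 0.310 and 0.251 in WT chimera, 9.80 and 5.76 in DKO steady-state and 0.289 and 0.220 in WT steady-state libraries (-1.78 ± 0.34). Slc40a1, the iron exporter ferroportin, was higher in DKO in steady state (1.56) and not called in chimeras (-0.45), with an interaction of -2.0 ± 0.37. The calls of Spic and Slc40a1 held in 3 and 4 of 8 fits without a library, at -2.12 to -1.44 and -2.37 to -1.63. Over the libraries left out, the interaction of Steap3, a ferrireductase of iron uptake, was -2.47 to -2.19. Steap3 is not in this marker list, and was lower in DKO than in WT in chimeras and higher in steady state. It had 20.4 and 16.6 TPM in DKO chimera, 29.9 and 28.1 in WT chimera, 28.1 and 26.0 in DKO steady-state and 8.02 and 7.19 in WT steady-state libraries (-2.33 ± 0.17, adjusted p = 0.000809). Treml4, a receptor of splenic macrophages, differed in the other direction (1.57 ± 0.18). Without DKO chimera replicate 1 there were 3 markers of the list with a lower interaction, and without either WT chimera or either WT steady-state replicate 1 or 2.

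Of 23 tested markers of interstitial macrophages and monocytes, the interaction was higher for 3 and lower for 7 (2 and 8 after rescaling). The lower count was 3 without DKO chimera replicate 1, WT chimera replicate 1 or WT steady-state replicate 1, 2 without WT steady-state replicate 2 and 5 to 8 without any one of the other 4. The lower ones included the 3 C1q genes. The list's summed level was 18449 and 14625 TPM in DKO chimera, 17811 and 13853 in WT chimera, 13038 and 14784 in DKO steady-state and 4285 and 5296 in WT steady-state libraries, so WT chimera cells had several times the sum of WT steady-state cells. The part of that difference in the results was not tested. The higher interactions included those of F13a1, given above, and Cx3cr1, the fractalkine receptor. Cx3cr1 had 2.72 and 2.53 TPM in DKO chimera and 0.127 to 0.479 TPM in the other 6 libraries (1.59 ± 0.25). It passed the level filter through the DKO chimera libraries and was untested when either was left out. In the other fits without a library its values were 1.53 to 1.64. Its call was lost without WT chimera replicate 1 or either WT steady-state replicate.

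Matrix and phagocytic genes showed both directions. Of 20 matrix genes and proteases, the interaction was higher for 3 and lower for 6 (3 and 7 after rescaling), and lower for 3 to 9 over the fits without a library. Fn1, fibronectin, had 1413 and 1364 TPM in DKO chimera, 535 and 504 in WT chimera, 767 and 849 in DKO steady-state and 941 and 724 in WT steady-state libraries (1.45 ± 0.17, adjusted p = 0.00463). DKO and WT overlapped in steady state and were apart in chimeras. Mmp12, macrophage elastase, had 28.8 and 32.4 TPM in DKO chimera, 9.90 and 13.8 in WT chimera, 54.6 and 121 in DKO steady-state and 2.57 and 2.82 in WT steady-state libraries (-3.17 ± 0.46, adjusted p = 0.00893). The protease gene Htra4 had the same direction (-2.28 ± 0.22). Of 35 genes of lysosomes and phagocytosis, the interaction was higher for 1 and lower for 6 (0 and 9 after rescaling), and lower for 9 and 5 without DKO steady-state replicates 1 and 2 and for 1 to 3 without any one of the other 6 libraries. Msr1, a scavenger receptor, had 91.9 and 80.0 TPM in DKO chimera, 25.2 and 25.8 in WT chimera, 75.2 and 101 in DKO steady-state and 7.07 and 7.94 in WT steady-state libraries (-1.67 ± 0.20, adjusted p = 0.00489). Its DKO levels overlapped, and WT chimera cells had more than WT steady-state cells.

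Cell-cycle genes were called lower in DKO mostly in steady state, but for most of them the difference between settings did not pass. Of 38 genes of mitosis and G2/M, 36 were called lower in DKO in steady state and 1 in chimeras (32 and 1 after rescaling). The interaction was higher for 13 and lower for 0 on the deposited scale, and for 2 and 0 after rescaling, with a median of 0.86, or 0.64 after rescaling. Of 41 genes of S phase, 29 were lower in DKO in steady state and 1 in chimeras (15 and 2 after rescaling), and the interaction was higher for 8 and lower for 0, or for 2 and 0 after rescaling. After rescaling the share in either list is near the 3.75% of all features. Espl1, separase, had 12.3 and 12.1 TPM in DKO chimera, 12.4 and 10.9 in WT chimera, 3.03 and 3.15 in DKO steady-state and 8.11 and 7.25 in WT steady-state libraries (1.15 ± 0.17, adjusted p = 0.00926). Racgap1, a regulator of cytokinesis, had 35.2 and 33.4 TPM in DKO chimera, 32.7 and 41.7 in WT chimera, 13 and 10.8 in DKO steady-state and 34.5 and 27.4 in WT steady-state libraries (1.2 ± 0.22, adjusted p = 0.0182). Its call was lost without replicate 1 of DKO chimera, WT chimera or WT steady state (1.03 to 1.37 over all). Over the 8 fits without a library, 1 to 20 of the mitosis genes had a higher interaction, with 20 without DKO steady-state replicate 1, 8 without WT chimera replicate 2 and 1 to 3 without any one of the other 6. For S phase genes these counts were 14, 5 and 0. In bulk RNA, fewer cells in division and less of these transcripts per cell cannot be told apart.

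The D-type cyclin Ccnd2, which starts the cycle, had 87.8 and 83.6 TPM in DKO chimera, 176 and 156 in WT chimera, 84.2 and 86.3 in DKO steady-state and 287 and 281 in WT steady-state libraries (0.78 ± 0.11, adjusted p = 0.00863). DKO levels were alike in both settings, and WT steady-state cells had the most. Cdkn2a, which encodes the cycle inhibitors p16 and p19, was lower in DKO in chimeras (2.17 and 3.19 TPM in DKO, 7.83 and 9.50 in WT) and higher in steady state (2.90 and 4.20 in DKO, 1.502 and 0.858 in WT), with an interaction of -2.46 ± 0.33 (adjusted p = 0.00649).

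Some genes of MHC class I presentation and of the interferon response were higher in DKO in steady state by more than in chimeras. Of 21 genes of MHC class I and peptide loading, 12 were called higher in DKO in steady state and 3 in chimeras (16 and 2 after rescaling), and the interaction was lower for 5 and higher for 0 (9 and 0 after rescaling). The lower count was 10 without DKO steady-state replicate 1 and 1 to 3 without any one of the other 7 libraries. H2-T23, a non-classical class I gene, had 264 and 253 TPM in DKO chimera, 187 and 185 in WT chimera, 399 and 492 in DKO steady-state and 150 and 158 in WT steady-state libraries (-1.04 ± 0.14, adjusted p = 0.0069). Of 13 MHC class II genes, limma called 0 interactions in either direction on either scale, with 2 higher and 0 lower at an unadjusted p under 0.05 on the deposited TPM, and without DKO steady-state replicate 1 there were 2 called higher. Of 41 interferon response genes, 22 were higher in DKO in steady state and 7 in chimeras (25 and 7 after rescaling), and the interaction was lower for 5 and higher for 0 (6 and 0 after rescaling). The lower count was 12 without DKO steady-state replicate 1, 4 without its replicate 2 or DKO chimera replicate 2, and 0 without any one of the other 5. Gbp5, a guanylate-binding protein of the interferon-gamma response, had 5.83 and 7.27 TPM in DKO chimera, 5.46 and 6.196 in WT chimera, 11.4 and 19.6 in DKO steady-state and 3.39 and 3.32 in WT steady-state libraries (-1.73 ± 0.32, adjusted p = 0.0192). It kept its call in 3 of 8 fits without a library (-2.10 to -1.37).

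Of 29 tested markers of alveolar macrophages themselves, the interaction was higher for 3 and lower for 3 on both scales. Over all features the shares were 10.3% higher and 3.04% lower, or 3.75% and 6.63% after rescaling. It was not called for 23 markers on the deposited TPM, and the median was 0.08 (-0.20 after rescaling). Without single libraries 0 to 5 were higher and 1 to 5 lower. Krt19, a keratin of these cells, had 158 and 186 TPM in DKO chimera, 1136 and 1102 in WT chimera, 544 and 593 in DKO steady-state and 1897 and 1739 in WT steady-state libraries (-1.02 ± 0.14, adjusted p = 0.00686), and so fell more in chimeras. Epcam, an adhesion molecule, had 3.76 and 5.49 TPM in DKO chimera, 119 and 75.1 in WT chimera, 1.15 and 0.753 in DKO steady-state and 113 and 122 in WT steady-state libraries. Its interaction of 1.83 ± 0.33 lost its call without either WT steady-state replicate (1.5 to 2.15 over all). Mrc1, the mannose receptor, had an interaction of 0.83 ± 0.13, with a call lost without either of the same libraries (0.71 to 0.96). Pparg, the factor that alveolar macrophages need, had 277 and 274 TPM in DKO chimera, 258 and 238 in WT chimera, 210 and 153 in DKO steady-state and 299 and 310 in WT steady-state libraries (0.92 ± 0.19, adjusted p = 0.0248, called in 2 of 8 fits without a library, at 0.69 to 1.14).

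**Figure D4:**
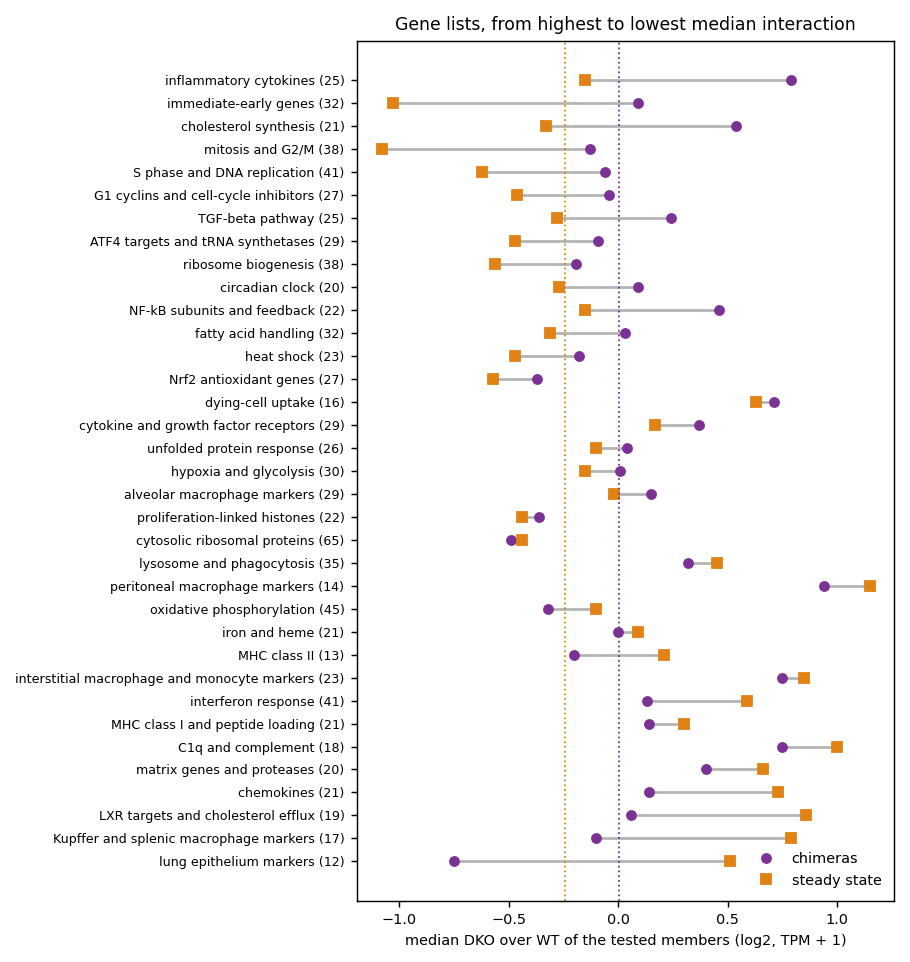
Median DKO-over-WT log2 difference of each gene list with at least 10 tested members, in chimeras (circles) and in steady state (squares), ordered by median interaction, with the number of tested members in parentheses; the dotted lines are the medians of all features, 0.00 in chimeras and -0.24 in steady state. Mitosis and immediate-early genes lie far left in steady state and near 0 in chimeras, while LXR targets lie right in steady state and near 0 in chimeras.

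The chimera sort used the CD45.1 and CD45.2 alleles of Ptprc, so features near that gene were counted. Ptprc itself had 245 and 232 TPM in DKO chimera, 247 and 242 in WT chimera, 296 and 235 in DKO steady-state and 367 and 401 in WT steady-state libraries, and its interaction of 0.50 ± 0.16 did not pass (adjusted p = 0.0657). Of the 50 tested features on either side of Ptprc, 25 of 100 had a called interaction, 21 higher and 4 lower, against 13.4% of all features (11 and 7 after rescaling). Ppfia4, a scaffold protein of synapses, had 4.18 and 4.59 TPM in DKO chimera, 0 and 0.0697 in WT chimera, 6.96 and 6.65 in DKO steady-state and 6.61 and 7.001 in WT steady-state libraries (2.38 ± 0.20, adjusted p = 0.00114). Kif21b, a kinesin, had 4.37 and 5.81 TPM in DKO chimera, 0.244 and 0.302 in WT chimera, 6.83 and 6.34 in DKO steady-state and 5.11 and 4.67 in WT steady-state libraries (1.88 ± 0.23, adjusted p = 0.00479). Both genes were low in the WT chimera libraries, from CD45.1+ cells, and not in the other 6. Plekha6, also in this stretch, differed by another pattern, with 47.6 and 47.8 TPM in DKO steady-state libraries and 4.69 to 8.74 TPM in the other 6 (-1.75 ± 0.16). The part of the CD45 alleles in these interactions was not tested.

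Markers of other cells that could pass the sort differed for some cell types. The summed level of 13 neutrophil markers was 234 and 242 TPM in DKO chimera, 113 and 94.9 in WT chimera, 371 and 394 in DKO steady-state and 87.4 and 87.2 in WT steady-state libraries. Csf3r, given above among the genes alike in both settings, is in this sum, at 119 and 121 TPM in DKO chimera, 22.7 and 14.3 in WT chimera, 200 and 187 in DKO steady-state and 26.4 and 37.6 in WT steady-state libraries. Of the defining markers, S100a9 had 0 to 0.683 TPM and Mpo 0 to 0.138 TPM over the 8 libraries. The 5 tested members include S100a8 (-2.65 ± 0.27, adjusted p = 0.00231), at 12.6 and 19.1 TPM in DKO chimera, 21.0 and 21.3 in WT chimera, 79.8 and 103 in DKO steady-state and 19.9 and 17.4 in WT steady-state libraries. Lung epithelium markers summed to 252 to 519 TPM over the 8 libraries. Epcam, given above as an alveolar macrophage marker, is in this sum. Of 12 tested, 3 were higher and 3 lower (2 and 4 after rescaling). The higher ones were Epcam (1.83), Cdh1 (1.28) and Napsa (0.76). The lower ones were the surfactant gene Sftpc (-2.24 ± 0.40), the club cell secretoglobin Scgb1a1 (-1.83 ± 0.34) and Cyp2f2 (-1.56). The calls of Sftpc and Scgb1a1 were lost without some single libraries, at -2.68 to -1.80 and -2.28 to -1.38. Scgb1a1 had 21.1 and 20.6 TPM in DKO chimera, 43.9 and 38.9 in WT chimera, 106 and 109 in DKO steady-state and 42.2 and 79.8 in WT steady-state libraries. Dendritic cell markers summed to 1106 to 1424 TPM. Of 9 tested, 3 were higher and 0 lower on both scales, with a median of 1.01, namely Ccr7 (1.52), Cd24a (1.29) and Wdfy4 (1.03). Ccr7 passed the level filter through the DKO chimera libraries and was untested when either was left out. The calls of Ccr7 and Wdfy4 were lost without most of the other single libraries, at 1.35 to 1.68 and 0.80 to 1.27. Cd24a kept its call without any one library (1.13 to 1.45). Of the eosinophil and mast cell markers, which summed to 570 to 1093 TPM, Ear1 was the 1 tested (-0.73, adjusted p = 0.0299), and alveolar macrophages express it too. The sum of 9 B cell markers was 19.2 TPM in WT steady-state replicate 1 and 1.24 to 6.59 TPM in the other 7 libraries. Cd79a reached at most 1.57 TPM and Ms4a1 0.411 TPM. The sum of 18 T and NK cell markers was 4.52 to 19.9 TPM. Erythrocyte and platelet markers summed to 38.3 and 123 TPM in DKO steady-state libraries and to 8.22 to 18.0 TPM in the other 6. Of 4 tested, the 1 called was Pf4 (-3.18, at -4.05 to -2.30 over the libraries left out). Pf4 is also in the list of interstitial macrophage and monocyte markers. The platelet gene Ppbp had 0.733 and 1.11 TPM in DKO steady-state libraries and 0 to 1.68 TPM in the other 6. The part of such cells in the results above was not tested.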

How the data were processed

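TPM values of each library were used as deposited. Per the file headers they are one column per library, scaled to the same sum in each column. Tools in the submitters' processing notes are DESeq2 1.2.10, HTSeq 0.5.3, TopHat 1.4.1, Bowtie2 and Bowtie 1.0.0, and the builds are mm9 and GRCm38.p3, with no role given to any of them. The tables' baseMean column, per the file headers a coverage signal averaged by the authors over the 4 libraries of a table, was used with the TPM values to recover whole reads. In all 8 libraries 100% of values came out within 0.01 of a whole number. Those reads give the depth and one alternative test.

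Log2(TPM + 1) was fitted with limma 3.58.1 (R 4.3.3), with 4 group means and an intensity trend, over the 8 alveolar libraries (4 residual and 3.82 prior degrees of freedom). Features at 1 TPM or more in at least 2 libraries entered, p-values were Benjamini-Hochberg adjusted over all 11567, and an adjusted p under 0.05 is called a change. With 2 libraries a group, p-values measure the spread between these libraries. Rescaled values were divided by each library's median of ratios. Read intervals and floors would cover counting error only. Promoters are RefSeq windows on GRCm38.p6, and motifs were searched on both strands.

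Named genes were the 12 highest and 12 lowest interactions, 8 opposite and 8 alike genes, and up to 6 members per list. The 12 highest and 12 lowest needed a group mean of at least 10 TPM and an interaction called under both scalings. Both chimera differences of same-numbered libraries also had to lie on the same side of both steady-state ones. Their calls after rescaling and this separation were thus fixed by the choice. Genes that overlap another gene in the files' naming, Bhlhe40 among them, are uncertain. The lists (42, with 900 of 1084 genes tested), their members and the motifs were chosen with earlier results of these data known. Alternatives tried were other pseudocounts, other filters, rescaling, 12 libraries, a replicate block, voom on recovered reads and leaving out each library. Peritoneal libraries entered only the 12-library alternative, and ChIP samples were not used here. Some members of the lists are counted and not reported here by name.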

Additional observations from a re-analysis of the deposited data

Results flagged for a closer look

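The DKO effect differed between settings, by the test of the difference itself (limma, adjusted p under 0.05), for 1549 features, among them Bhlhe41 at -0.69. The 12 named genes with the highest interactions were Egr3 (4.85), Pmepa1 (4.23), Uck2 (3.74), Egr1 (3.69), Thbs1 (3.29), Spag11b (3.29), Mkx (3.16), F13a1 (3.15), Gpr171 (3.04), Snora64 (2.96), Trem1 (2.96) and Id1 (2.89). The 12 with the lowest were Saa3 (-5.62), Nov (-4.91), Mmp14 (-4.31), Mfge8 (-4.09), Tmem37 (-3.87), Scd1 (-3.81), Vcam1 (-3.79), H2-M2 (-3.78), Arnt2 (-3.51), Fam20c (-3.45), Acpp (-3.33) and Ppap2b (-3.29). Among features called in opposite directions, Mir125a (4.86), IMP_IDC_134 (-4.48), Snora3 (3.70), Apcdd1 (2.70), Myrf (-2.69) and Qpct (2.56) had the largest besides Gpr171 and Scd1. Mir125a, Snora3 and Snora64 rest on at most 17 reads in any library. With 2 libraries a group, no group was large enough to look for single outlying samples.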

How the results depend on the processing

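Setting cannot be told apart from library series, 2 libraries a group give 4 residual degrees of freedom, and 6.59 M reads in DKO chimera replicate 1 limit low genes. With all 8 libraries there were 1549 features with an interaction called, 1197 with an interaction called higher and 352 with an interaction called lower. Without the filter there were 716, 500 and 216, and with all 12 libraries 3000, 2444 and 556. Rescaling gave 434 higher and 767 lower, and voom on recovered reads 602 and 795. Leaving out single libraries gave 224 to 3391 in all, 125 to 2843 higher and 99 to 548 lower. Features with an interaction called higher under both scalings numbered 67 to 961, and those with an interaction called lower under both scalings 96 to 546. Features with DKO minus WT in chimera called numbered 1174 to 3155, and those with DKO minus WT in steady state called 3032 to 5756, against 2642 and 5618 with all 8 libraries. The interaction of Fam167a reversed to 1.37 with a pseudocount of 0.1 and to 1.62 with voom, against -0.30, and the cause was not tested. Over all features, deviations of same-numbered libraries had correlations of 0.13 in chimeras and -0.05 in steady state. The labels give no pairing, so the main fit did not treat these libraries as pairs. The choice of the 12 highest and 12 lowest named genes did use differences of same-numbered libraries. In some lists both genotypes' replicate 2 still moved the same way. It was below replicate 1 for 5 DKO and 1 WT of 38 mitosis genes in chimeras and for 34 and 37 in steady state. For 21 cholesterol synthesis genes these counts were 17 and 20 in chimeras and 5 and 7 in steady state. For 13 MHC class II genes they were 11 and 13, then 3 and 2. For 45 oxidative phosphorylation genes they were 4 and 11, then 34 and 42. A batch shared by same-numbered libraries was not tested. A replicate block within setting gave 1148 features, 837 higher and 311 lower. Over 299 results there were 2 reversals under any setting, both of Fam167a as given above. Among named genes still tested, leaving out WT steady-state replicate 2 cost the most calls and leaving out DKO steady-state replicate 1 the fewest. Without that DKO library, Saa3, Nov and Arnt2 were untested and are not counted as lost.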

Other observations

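Other gene groups also differed in their counts. Of 38 ribosome biogenesis genes, 32 were lower in DKO in steady state and 8 in chimeras (21 and 10 after rescaling), against 37% and 11.2% of all features, and the interaction was higher for 10 and lower for 0, or for 1 and 0 after rescaling. That higher count was 13 without DKO steady-state replicate 1, 7 and 6 without DKO chimera or DKO steady-state replicate 2, and 1 without any one of the other 5 libraries. Of 45 oxidative phosphorylation genes, 20 were lower in DKO in chimeras and 8 in steady state (27 and 2 after rescaling), against 11.2% and 37% of all features, and the interaction was higher for 0 and lower for 2, or 0 and 13 after rescaling. The lower count was 8 without DKO chimera replicate 2, 3 without DKO steady-state replicate 1 and 0 without any one of the others. Of 65 cytosolic ribosomal protein genes, 41 were lower in DKO in chimeras and 43 in steady state (47 and 14 after rescaling).

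Transcripts of plasma cells and of the inactive X chromosome were uneven between libraries. The immunoglobulin light chain Igkc had 1.09 and 1.75 TPM in DKO chimera, 17.8 and 25.2 in WT chimera, 14.7 and 89.4 in DKO steady-state and 3.77 and 8.19 in WT steady-state libraries. Xist had 0.905 and 1.94 TPM in DKO chimera, 0.0876 and 0.242 in WT chimera, and at most 0.0311 TPM in steady-state libraries. The Y-linked gene Ddx3y had 18.3 to 39.7 TPM in every library.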
